A study of Mus musculus with 2 samples.

Results

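The cells described here are mouse cones whose opsin RNA is dominated by middle-wave opsin (Opn1mw). They were selected on their own counts of unique molecular identifiers (UMIs, 1 per captured RNA molecule). A member had at least 800 UMIs, at most 20% of them mitochondrial, at least 1% from the cone genes Pde6h, Arr3, Gnat2 and Pde6c together, at least 5 opsin UMIs, and at least 80% of these from Opn1mw. The rule found 972 cells of 19562, 402 in the control library and 570 in the STZ library. By the same limits, 439 cones held at most 20% Opn1mw (short-wave cones) and 317 lay between (cones with both opsins).

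The strain is labelled C57BL/6, and the treatment protocol, which is given for both samples, names C57BL/6J males. The diabetic group received streptozotocin (STZ), a toxin of insulin-producing cells, intraperitoneally at 55 mg/kg when aged 3 to 5 weeks, had blood glucose above 300 mg/dL, and was studied after 25 weeks of high glucose. The control group was untreated. Each library pooled 3 retinas, and there was 1 library per group. No comparison below therefore has a replicate check and no test was possible, and every interval is a 95% interval that covers counting error only. Cells of a library are not replicates.

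Cones carry daylight vision. Light changes the shape of an opsin, which through transducin and a phosphodiesterase lowers cyclic GMP and closes the cyclic nucleotide-gated channels. In the mouse retina middle-wave opsin prevails dorsally and short-wave opsin (Opn1sw) ventrally, many cones make both, and thyroid hormone acting through the receptor Thrb is needed for middle-wave opsin. The labels do not say from which part of the retina a cell came.

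The members had a median of 5889 UMIs and 2412 genes in the control library and 4959.5 UMIs and 2163 genes in the STZ library. The deposited cells end at 2999 genes, and 14.2% of the control members and 4.74% of the STZ members had 2800 or more. The median mitochondrial share was 13% and 15%. Of the cells meeting the opsin and cone gene limits, 112 in control and 142 in STZ were left out for their mitochondrial share, and 0 and 11 for low UMIs. Although 21 barcodes occur in both libraries, 0 members carried one. Levels are in CPM (counts per 1000000), where a gene's UMIs, summed over the members of a library, are scaled to the sum over all genes.

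The sequences that lie before the RefSeq start sites of 4 genes are shown. Both opsins are shown because the selection rests on them, and Nr2f2 because it was higher in middle-wave than in short-wave cones. Drd4 is shown because it had the largest ratio between the libraries among the genes named by rule. The sequences come from RefSeq on build GRCm38.p6, which is mm10, and all 4 genes matched by symbol. Each runs 5′ to 3′ toward the start site. The Opn1sw window lies inside the longer GENCODE model of that gene. The Drd4 sequence has 238 bases, because the 12 bases nearest the start that GENCODE puts in its first exon were left off. The last 2 bases of the Opn1mw window lie in its GENCODE exon. Capitals mark the motif TAATCC, to which the photoreceptor factor CRX binds. They also mark AGGTCA, which receptors such as those of thyroid hormone recognise. Both strands were searched, so a motif can appear as its reverse complement. These motifs do not overlap each other.
Opn1mw, chrX:74127216-74127465, plus strand: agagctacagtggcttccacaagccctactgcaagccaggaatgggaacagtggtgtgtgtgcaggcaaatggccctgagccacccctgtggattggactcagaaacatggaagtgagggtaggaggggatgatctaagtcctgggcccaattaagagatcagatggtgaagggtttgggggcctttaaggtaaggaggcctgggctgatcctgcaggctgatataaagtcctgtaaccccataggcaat
Opn1sw, chr6:29380514-29380763, minus strand: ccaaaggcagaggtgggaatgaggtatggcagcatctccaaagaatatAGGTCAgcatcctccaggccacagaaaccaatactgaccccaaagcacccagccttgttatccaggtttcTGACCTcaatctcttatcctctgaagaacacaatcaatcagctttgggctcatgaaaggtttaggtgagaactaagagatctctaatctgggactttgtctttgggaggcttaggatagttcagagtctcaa
Nr2f2, chr7:70366747-70366996, minus strand: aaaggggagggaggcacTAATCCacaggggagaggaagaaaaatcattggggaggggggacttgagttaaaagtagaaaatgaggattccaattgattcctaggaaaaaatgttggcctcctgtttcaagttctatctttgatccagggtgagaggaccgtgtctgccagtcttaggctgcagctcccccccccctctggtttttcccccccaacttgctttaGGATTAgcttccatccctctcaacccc
Drd4, chr7:141291768-141292005, plus strand: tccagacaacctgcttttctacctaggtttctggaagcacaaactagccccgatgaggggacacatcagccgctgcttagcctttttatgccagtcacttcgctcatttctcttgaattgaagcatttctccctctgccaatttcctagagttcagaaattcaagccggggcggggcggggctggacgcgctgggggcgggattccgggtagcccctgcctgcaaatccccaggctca
The Opn1sw window held AGGTCA on the plus orientation of the gene, 202 bases before the start, and on the other strand at 132 bases. The Nr2f2 window held TAATCC at 233 bases and, on the other strand, at 27 bases. That window lies in an exon of B130024G19Rik, a noncoding gene of the opposite strand. Neither motif was found in the Opn1mw and Drd4 windows. Of 32536 RefSeq windows of 250 bases, 6.25% held TAATCC and 14% held AGGTCA on either strand. A match describes the letters only.

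The genes that chose the members had these levels, given as a description. Opn1mw stood at 8938 CPM in control members and 8759 CPM in STZ members. Among single control members it ran from 5228 CPM at the 10th percentile over a median of 8872 to 12624 at the 90th, and among STZ members from 4896 over 8475 to 13502. The members held a median of 52 opsin UMIs in control (range 6 to 129) and 41.5 in STZ (range 5 to 142). Opn1sw was at 138 and 180 CPM in the members, against 16221 and 15402 CPM in short-wave cones. Cells outside the cone limits held Opn1sw at 82.8 and 171 CPM, with up to 69 and 111 UMIs in a single cell, so these sums are not free RNA alone. An Opn1sw UMI was found in 32.8% of control and 40.5% of STZ members, and in 21.7% and 28.8% of the non-cone cells, whose median depth was lower at 4360.5 and 3207 UMIs. With each cell thinned to 2000 UMIs, and shallower cells left out, the shares were 18.5% and 23.7% of members and 10.9% and 15.5% of non-cone cells. The cone arrestin Arr3, which shuts off the activated pigment, was at 4282 CPM in control members and 3648 in STZ members. It was 1.54-fold higher (1.48 to 1.60) than in short-wave cones in control and 1.45-fold higher (1.39 to 1.52) in STZ. Gnat2, the alpha subunit of cone transducin, was at 3196 and 3708 CPM. Pde6h and Pde6c, the inhibitory and catalytic subunits of the cone phosphodiesterase, were at 16318 and 13121 CPM and at 1144 and 1008 CPM.

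The label was checked against cone genes outside the rule. Cnga3, a subunit of the cone channel, was at 101 CPM in control members and 88.6 in STZ members, against 1.57 and 2.84 in non-cone cells. Gngt2, the gamma subunit of cone transducin, was at 6664 and 5815 CPM against 290 and 405. Thrb was at 399 and 487 CPM against 30.7 and 37.1. In each of these genes both libraries of members lay above both libraries of non-cone cells.

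Most members held middle-wave opsin with little or no short-wave opsin. Of the 402 control members 270 had no Opn1sw UMI at all, and so did 339 of the 570 STZ members. Few cells stood near the limit of 80%. Just inside it, from 80 to under 85% Opn1mw, lay 9 control and 17 STZ cells, and just outside, from 75 to under 80%, 8 control and 7 STZ cells. Their Opn1mw levels were 9194 and 9160 CPM inside and 6431 and 8054 CPM outside.

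**Figure D1:**
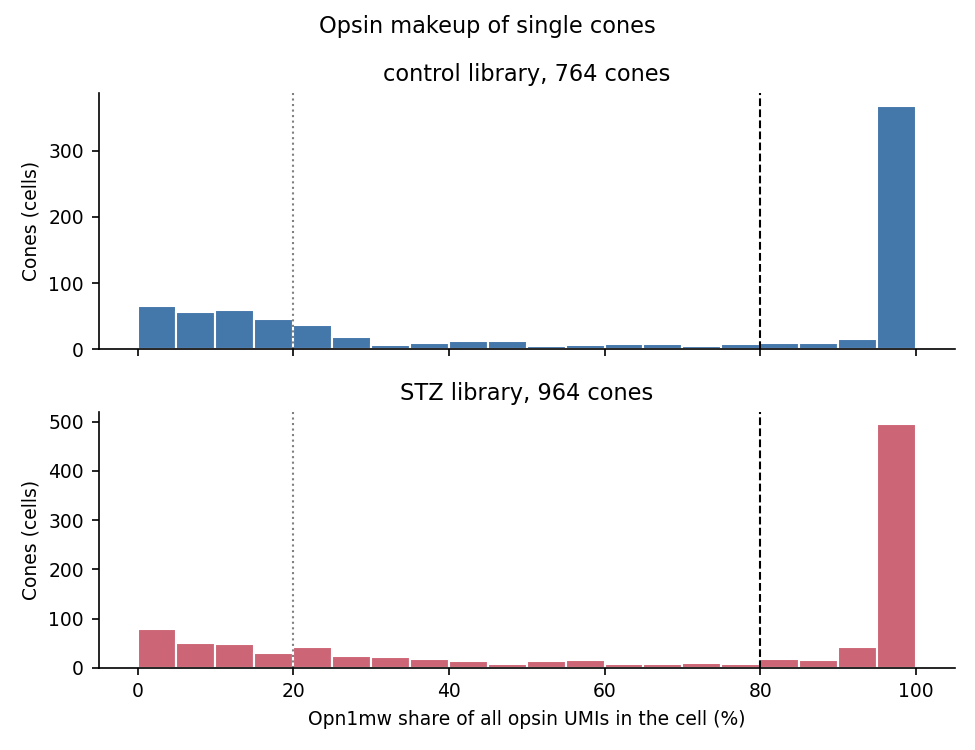
Number of cones (vertical axis, cells) in steps of 5% of the share of Opn1mw among opsin UMIs (horizontal axis), with control above and STZ below. The dashed line marks the 80% limit and the dotted line 20%, and the highest step holds 368 control and 495 STZ cells.

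Members made up a larger share of the cones in the STZ library. Of cones with at least 5 opsin UMIs they were 52.6% in control (49.0 to 56.2, exact binomial interval, 402 of 764) and 59.1% in STZ (55.9 to 62.3, 570 of 964). Short-wave cones took 30.0% and 21.8%, and cones with both opsins 17.4% and 19.1%. Of all cells within the UMI and mitochondrial limits, members were 7.95% and 8.26%. With a mitochondrial share of at most 10%, which left 79 control and 46 STZ members, their share of cones was 46.7% in control and 47.4% in STZ. The median cone gene share was 2.49% in control and 2.11% in STZ members, and 2.18% and 1.94% in short-wave cones. With cone genes at 2% of UMIs or more, members were 58.2% of cones in control and 65.6% in STZ. How far the limit on cone genes shapes the difference between the libraries was not tested. With a single library each, the handling of the retinas and the treatment cannot be told apart.

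Within each library, few genes separated middle-wave from short-wave cones. Of 3325 genes with at least 50 UMIs and a mean of 50 CPM, 24 (0.722%) were at least 1.5-fold higher in members in both libraries and 21 (0.632%) at least 1.5-fold lower. The 6 genes of the rule are not among the 3325. The median log2 ratio over all of them was 0.01 in both libraries.

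Among genes higher in the members, Smug1, a uracil-DNA glycosylase of base excision repair (chr15:103153290-103167092, minus strand), was at 256 CPM in control members against 45.0 in short-wave cones, a 5.67-fold difference (4.28 to 7.67). In STZ it was at 152 CPM against 30.9, 4.91-fold (3.30 to 7.61). Smug1 was lower in STZ than in control members by 1.68-fold. Samd7, a repressor of non-photoreceptor and other-opsin genes in photoreceptors (chr3:30746293-30767174, plus strand), was at 72.3 CPM against 22.9 in control and 124 against 14.3 in STZ. These are ratios of 3.15 (2.09 to 4.92) and 8.72 (4.93 to 17.0). Nxnl2, a thioredoxin-like gene known as a cone survival factor, was at 377 CPM against 121 in control and 380 against 163 in STZ, 3.12-fold and 2.33-fold. The other genes named by rule were Apela, a peptide ligand of the apelin receptor (2.24-fold and 2.13-fold higher), Mgst3, a microsomal glutathione transferase (1.87-fold and 1.88-fold), and the citron kinase Cit (2.72-fold and 1.85-fold). Ppa1, an inorganic pyrophosphatase, was 1.80-fold and 1.93-fold higher, and the Wnt receptor Fzd10 2.01-fold and 1.79-fold. All 8 were chosen by their ratios in both libraries, so members lay above short-wave cones in both by that choice. With a mitochondrial share of at most 10%, the ratio of the library nearer to 1 was 1.30 for Nxnl2, 1.16 for Cit and 1.41 for Fzd10, short of 1.5-fold, 3.10 for Smug1 and 5.78 for Samd7. With cells thinned to 800 UMIs it was 1.34 for Apela and 1.42 for Fzd10, and with cone genes at 2% of UMIs or more 1.44 for Cit and 1.39 for Fzd10.

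Nr2f2, a nuclear receptor (COUP-TFII) known for dorsal identity in the developing eye, was the 1 gene of 17 dorsoventral patterning genes in the table that reached 50 UMIs and 50 CPM in members. It was at 53.1 CPM in control members (122 UMIs) and 65.5 CPM in STZ members (179 UMIs), against 3.40 and 10.7 CPM in short-wave cones. The ratios were 15.6 (5.95 to 58.3) and 6.12 (3.15 to 13.6), and the one nearer to 1 was 2.66 to 11.2 over the alternative settings. Non-cone cells held it at 41.8 and 71.6 CPM. An Nr2f2 UMI was found in 24.9% of control and 24.2% of STZ members. In cones from 50 to under 80% Opn1mw, Nr2f2 was at 19.7 CPM in control (4 UMIs) and 60.1 CPM in STZ (16 UMIs). Its mean over both kinds of cone lay under the minimum of 50 CPM, and the rule for named genes leaves out unnamed noncoding genes, so Nr2f2 and its neighbours were chosen after their values were seen. Nr2f2 lies at chr7:70351944-70366735 on the minus strand. The noncoding gene Gm44532 (chr7:70420915-70453222, same strand) lies 54.2 kb from it, between their nearest ends, and was at 161 CPM in control members (370 UMIs) and 138 CPM in STZ members (378 UMIs). Short-wave cones held 4 Gm44532 UMIs in control and 0 in STZ, so the ratio was 47.4 (18.4 to 175) in control and at least 38.8-fold higher in STZ, against a floor of 3 UMIs over the group. With a mitochondrial share of at most 10%, which left 46 STZ members, the Gm44532 value nearer to 1 was 5.63. The STZ value at that limit is again a bound against the floor of 3 UMIs, and such a bound falls as fewer cells are summed. Non-cone cells held Gm44532 at 2.27 and 3.04 CPM. A Gm44532 UMI was found in 52.7% of control and 45.3% of STZ members, and in 0.863% and 0.930% of non-cone cells. In short-wave cones the shares were 1.75% and 0%, and the interval for 0 of 210 cells reaches 1.74%. Thinned to 2000 UMIs, the shares of members were 25.9% and 23.3%. A further noncoding gene of the same strand, Gm28258 (chr7:70372038-70388410), lies 5.3 kb from Nr2f2 and was at 9.58 CPM in control members (22 UMIs) and 38.8 CPM in STZ members (106 UMIs), with 1 UMI in short-wave cones of either library. Nr2f2, Gm44532 and Gm28258 were thus all higher in members than in short-wave cones in both libraries. The annotated noncoding gene B130024G19Rik overlaps all of them on the other strand, and its level is not given here. Nr2f1, the paralogue of Nr2f2, was near absent from members at 3 and 7 UMIs. Among further patterning genes with few UMIs, the ventral factor Vax2 held 3 and 7 UMIs in members (1.31 and 2.56 CPM) against 15.3 and 20.2 CPM in short-wave cones. Its ratio was 0.09 (0.02 to 0.29) in control and 0.13 (0.04 to 0.32) in STZ. Vax2 too was chosen after its values were seen. The levels of the other patterning genes of the 17 are not given here, so the genes named do not describe the list.

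Among genes lower in the members, Syndig1l, a relative of the synapse differentiation gene Syndig1 (chr12:84677277-84698831, minus strand), was at 6.97 CPM in control members against 195 in short-wave cones. In STZ it was at 11.7 CPM against 257. The ratios were 0.04 (0.02 to 0.06) and 0.05 (0.03 to 0.07), and non-cone cells held the gene at 8.26 and 9.43 CPM. Kcne2, an accessory subunit of potassium channels, was at 331 CPM against 813 in control and 294 against 677 in STZ. The single-strand DNA binding gene Ssbp4 stood at ratios of 0.40 and 0.44, Ralyl, an RNA-binding gene, at 0.40 and 0.34, and Pgs1, of cardiolipin synthesis, at 0.48 and 0.46. Rab27b, of vesicle traffic, stood at 0.50 and 0.54, Pex5l, a partner of HCN channels, at 0.54 and 0.48, and Syne2, a linker of the nucleus to the cytoskeleton, at 0.59 and 0.59. These 8 genes were chosen in the same way, so members lay below short-wave cones in both libraries by that choice. With a mitochondrial share of at most 10%, the ratio nearer to 1 was 0.68 for Rab27b and 0.77 for Syne2, short of 1.5-fold, 0.28 for Pgs1 and 0.09 for Syndig1l, and with cells thinned to 800 UMIs it was 0.74 for Rab27b and 0.27 for Pgs1. Ccdc136, which the rule for named genes leaves out because non-cone cells hold more of it, was at 74.9 CPM against 1268 in control and 141 against 1597 in STZ. The ratios were 0.06 (0.05 to 0.07) and 0.09 (0.08 to 0.10). Ccdc136 (chr6:29396309-29426994, plus strand) is the neighbour of Opn1sw (chr6:29376671-29388468, minus strand), with 7.8 kb between the nearest ends of the GENCODE genes. The RefSeq start of Opn1sw used for the sequence lies inside that longer GENCODE gene, so the distance depends on the start taken.

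**Figure D2:**
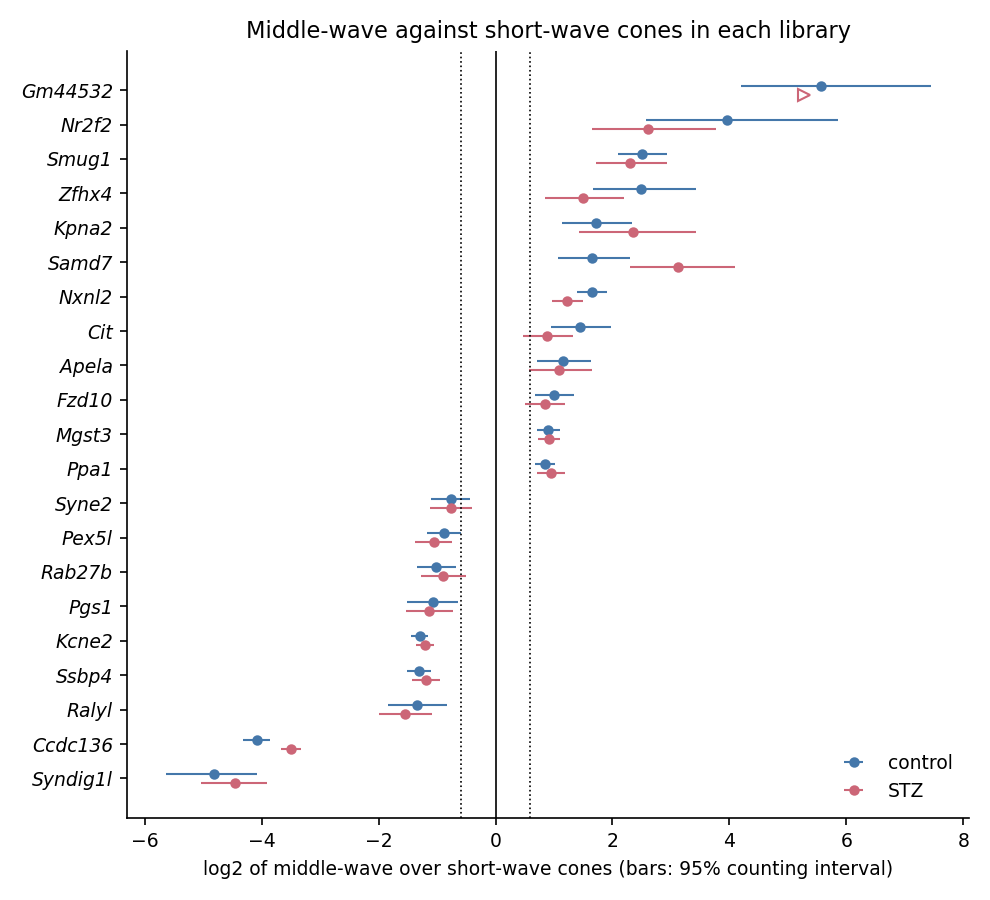
Each row is a gene, and the points give the log2 ratio of its level in middle-wave over short-wave cones in control (blue) and STZ (red), with 95% counting intervals as bars and dotted lines at 1.5-fold. The open triangle is the lower bound for Gm44532 in STZ, and Gm44532 stands highest and Syndig1l lowest in both libraries.

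When all cones were ordered by their Opn1mw share, the genes differed in where they changed level. Gm44532 was at 3.05 CPM in control cones under 5% Opn1mw, at 26.9 from 20 to under 50%, at 83.6 from 50 to under 80%, and at 163 CPM in cones with Opn1mw alone. In STZ the same steps gave 0, 9.52, 63.9 and 139 CPM. Smug1 went from 55.0 over 76.8 and 192 to 269 CPM in control, and in STZ from 25.6 over 55.2 and 45.1 to 159.6 CPM, with no higher level from 50 to under 80% than from 20 to under 50%. Ccdc136 ran the other way, from 1406 CPM in control cones under 5% over 866 and 599.6 to 31.7 CPM in cones with Opn1mw alone, and from 1684 over 1094 and 849 to 90.7 CPM in STZ. Inside the members themselves, Ccdc136 was at 355 CPM in control cells from 80 to under 90% Opn1mw (18 cells), at 104 CPM from 95 to under 100% (98 cells), and at 31.7 CPM in the 270 cells with no Opn1sw. Kcne2 was highest in the middle. In control it was at 510 CPM under 5% Opn1mw, at 948 from 20 to under 50%, and at 324 in cones with Opn1mw alone, and in STZ at 494, 849 and 287 CPM. Cones with both opsins can include pairs of cells caught together, which were not called.

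**Figure D3:**
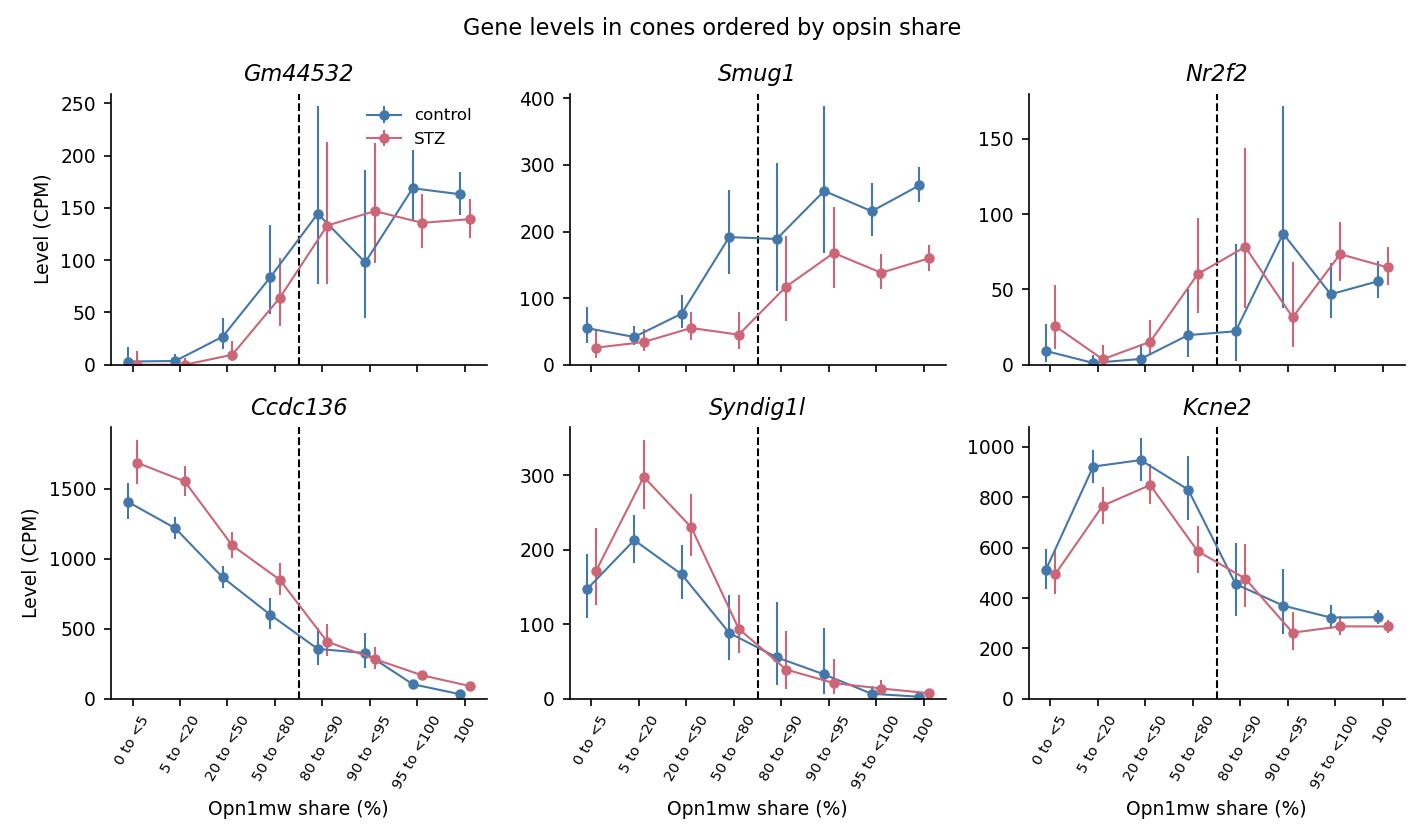
Level (CPM) of 6 genes in cones grouped by the share of Opn1mw among their opsin UMIs, in control (blue) and STZ (red), with exact Poisson intervals as bars and members to the right of the dashed line. Gm44532, Smug1 and Nr2f2 are higher on the right, Ccdc136 and Syndig1l on the left, and Kcne2 in the middle.

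By gene list, few or no phototransduction, fate and thyroid genes were past 1.5-fold in both libraries between both kinds of cone. Over all 3325 measured genes, 0.722% were at least 1.5-fold higher and 0.632% lower in both. A count of 0 therefore does not set a short list apart from other genes. Of 13 measured cone phototransduction genes, 0 were 1.5-fold higher and 0 lower in both libraries. Guca1a, which activates guanylate cyclase when calcium is low, was at 4496 and 4996 CPM in members, 0.67 of the level in short-wave cones in each library (0.65 to 0.69 in both). Thrb was 1.29-fold higher (1.14 to 1.46) in control members and 1.30-fold higher (1.15 to 1.47) in STZ members than in short-wave cones. Its partner Rxrg, which helps to keep Opn1sw low, was at ratios of 0.85 (0.65 to 1.12) and 0.62 (0.48 to 0.81). Of 15 measured fate factors, Samd7 alone was past 1.5-fold in both libraries. Otx2, a factor of photoreceptor and bipolar fate, stood at 0.71 and 0.70. Of 23 measured outer segment and cilium genes, 1 was past 1.5-fold, Impg1, a proteoglycan of the matrix around photoreceptors. It was at 261 CPM in control members and 177 in STZ members, 1.60-fold and 1.57-fold above short-wave cones. Of 25 ribbon synapse genes and 40 nuclear genes of the respiratory chain, 0 were past 1.5-fold in both libraries.

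Between the libraries, 83 of 3316 measured genes (2.5%) were at least 1.5-fold higher in STZ members and 82 (2.47%) at least 1.5-fold lower. Both shares are the background for the counts of list members given below. The median log2 ratio of all 3316 was -0.01. Which of these differences belongs to the treatment and which to the handling of a library cannot be told apart.

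The dopamine D4 receptor gene Drd4 had the largest ratio among the genes named by rule. The receptor acts through an inhibitory G protein to lower cyclic AMP, and in photoreceptors it conveys the daytime dopamine signal. Drd4 (chr7:141292006-141296464, plus strand) was at 158 CPM in control members (362 UMIs) and 668 CPM in STZ members (1824 UMIs), 4.24-fold higher (3.78 to 4.75). A Drd4 UMI was found in 54.2% of control and 88.6% of STZ members. In non-cone cells the shares were 12.3% and 24.9%. Thinned to 2000 UMIs, they were 27.9% and 68.2% in members and 7.50% and 15.0% in non-cone cells. Drd4 was 3.35-fold higher in STZ in short-wave cones and 4.52-fold in cones with both opsins. Adcy1, a calcium-activated adenylate cyclase that makes cyclic AMP, was at 71.8 CPM in control members and 28.6 in STZ members, 2.52-fold lower (1.91 to 3.34). The remaining genes of the dopamine and cyclic AMP list lay within 1.5-fold, so of 8 measured, 1 was higher and 1 lower. Among all 3316 measured genes 2.5% were higher and 2.47% lower. Prkar1a, a regulatory subunit of protein kinase A, was at 147 and 164 CPM.

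The other genes named by rule as higher in STZ had varied roles. Hmgb2, a DNA-bending chromatin protein, was at 82.3 CPM in control members and 341 in STZ members, 4.14-fold higher (3.54 to 4.87). Hist1h1c, a linker histone, was at 55.7 and 160 CPM, 2.88-fold higher (2.36 to 3.53). Hist3h2ba, a variant of histone H2B, was at 346 and 766 CPM, 2.21-fold higher (2.04 to 2.40). Histone genes share sequence with close copies, so these counts depend on how reads were assigned. Usp2, a deubiquitinase with a role in the clock, was at 166 and 350 CPM, 2.10-fold higher. Zfp787, a zinc finger gene, was 2.09-fold higher, the transcription factor Nfic 1.98-fold, AW209491 1.97-fold, Abhd14a 1.96-fold, and Nrtn, a survival factor of the GDNF family, 1.81-fold. In short-wave cones the same 10 genes were also higher in STZ, from 1.26-fold for Nfic to 3.40-fold for Hmgb2.

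Other genes lower in STZ members had different roles. Wwc1, a scaffold of the Hippo pathway, was at 87.5 and 39.9 CPM, 2.19-fold lower (1.73 to 2.80), while in short-wave cones it was at 39.1 and 34.5 CPM. Whether this difference between kinds of cone exceeds that between mice was not tested. Osgep, which modifies transfer RNA (chr14:50906478-50924893, minus strand), was at 1045 and 522 CPM, 2.0-fold lower (1.88 to 2.14), and at 71.8 and 56.8 CPM in non-cone cells. Rnf123, a ubiquitin ligase subunit, was 2.07-fold lower, Taf12, of the general transcription factor TFIID, 1.97-fold, Tmem237, of the ciliary transition zone, 1.93-fold, and Spred3, an inhibitor of Ras signalling, 1.89-fold. Control members lay above STZ members in each, which follows from how these genes were chosen. With a mitochondrial share of at most 10%, the ratio of Rnf123 was 0.89 and that of Taf12 0.71, both short of 1.5-fold, and among the genes higher in STZ that of AW209491 was 1.20. Taf12 was also short of it, at 0.70, in cells of 1500 to 5000 UMIs, and Spred3 was at 0.24 with cells thinned to 800 UMIs.

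**Figure D4:**
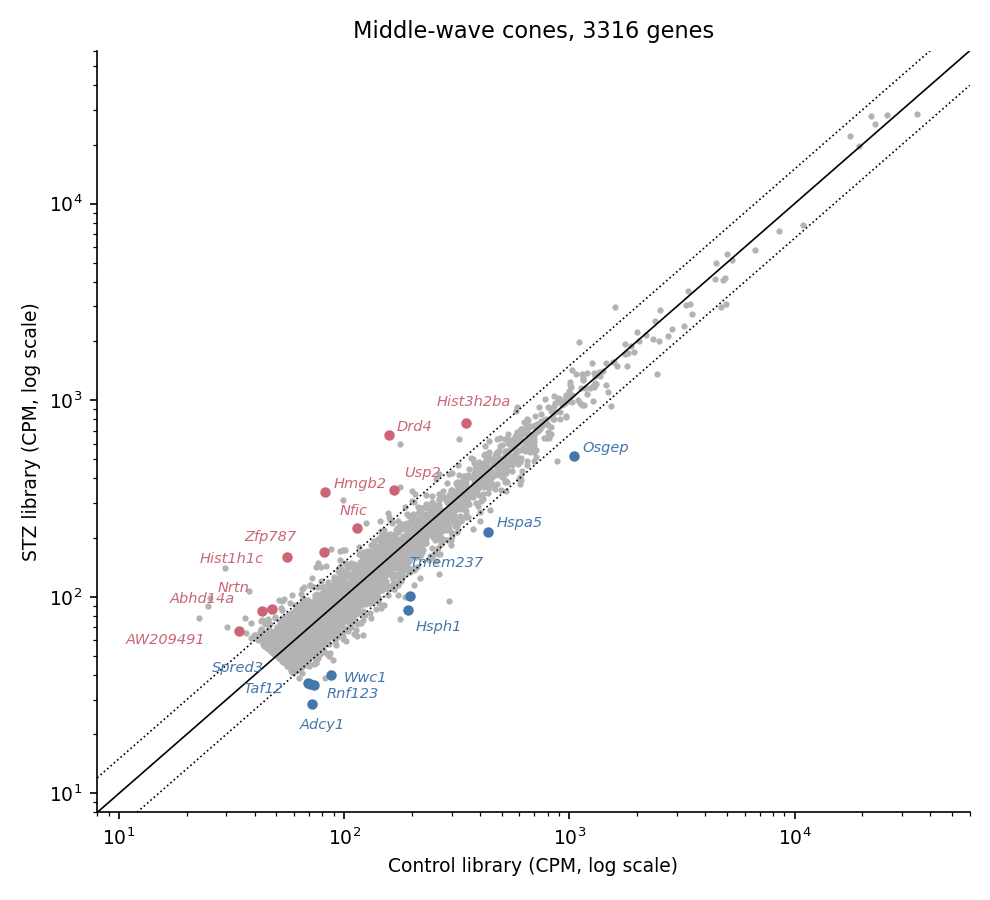
Each point is 1 of 3316 measured genes, with its level in control members on the horizontal axis and in STZ members on the vertical axis (CPM, both log scales). The solid line marks equal levels and the dotted lines 1.5-fold, and 19 genes named by rule (red higher, blue lower in STZ) lie outside them.

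**Figure D5:**
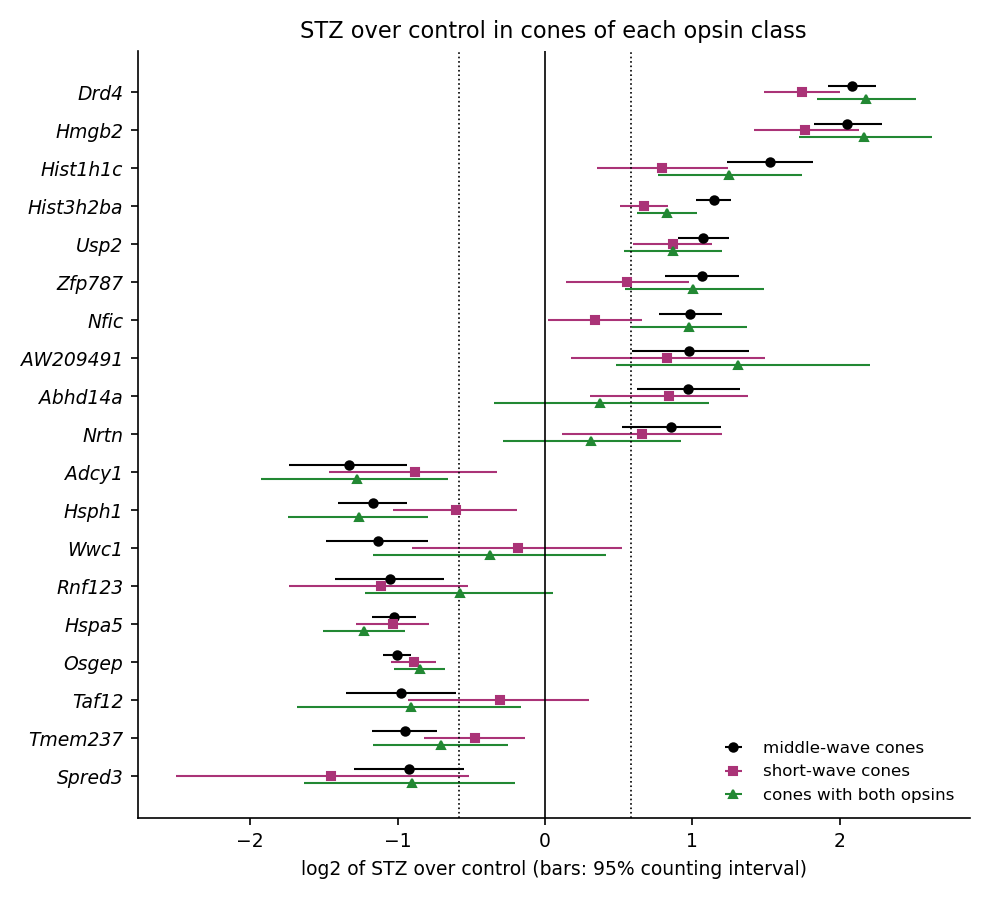
Log2 ratio of STZ over control for the same 19 genes in middle-wave cones (black circles), short-wave cones (purple squares) and cones with both opsins (green triangles), with 95% counting intervals as bars. Drd4 and Hmgb2 lie farthest right in all 3 classes.

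Chaperone genes were lower in STZ members as a group. The heat shock list had 15 measured genes, with a median log2 ratio of -0.69. Of these, 9 lay past 1.5-fold on the lower side and 0 on the higher. Over all 3316 measured genes, 2.47% were lower and 2.5% higher past 1.5-fold. Hsph1, a co-chaperone of Hsp70, was at 192 and 85.3 CPM, 2.25-fold lower (1.91 to 2.64). Ahsa1, an activator of Hsp90, was at 81.9 and 38.4 CPM, 2.13-fold lower (1.67 to 2.73). Hsp90ab1, the constitutive Hsp90, was at 878 and 490 CPM, 1.79-fold lower (1.67 to 1.92), and the mitochondrial chaperonin Hspd1 was 1.73-fold lower. The list's median was -0.48 in short-wave cones, -0.55 in cones with both opsins and -0.32 in non-cone cells. Of 12 measured chaperones of the endoplasmic reticulum, 2 were past 1.5-fold and lower, 0 were higher, and the median was -0.48. Hspa5 (BiP), the main chaperone there, was at 436 and 215 CPM, 2.03-fold lower (1.83 to 2.25), and Manf, a secreted stress-response factor, at 138 and 86.7 CPM, 1.60-fold lower. With each cell thinned to 800 UMIs, the median of this list was -0.19. Atf4 and Ddit3 of the integrated stress response were within 1.5-fold, at 188 and 219 CPM and at 110 and 105 CPM.

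The tubulin and motor list had a similar median, -0.47, and 8 of 10 measured genes lay below 0. Over the alternative settings this median ranged from -0.50 to -0.23. Past 1.5-fold were 3 of the 10, all of them lower, against 2.47% lower among all 3316 measured genes. Tubb4b was at 111 CPM in control members and 64.4 in STZ members, Tubb5 at 374 and 222, and Tuba1b at 266 and 165. These are tubulin subunits of microtubules, which carry the connecting cilium and axon transport. The dynein light chain Dynll1 was at 695 and 492 CPM, 1.41-fold lower. Tubulin genes have close copies, and their counts depend on read assignment.

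Cirbp and Rbm3, a pair of cold-inducible RNA-binding genes, were higher in STZ members, while their list as a whole was not. Cirbp was at 177 and 602 CPM, 3.40-fold higher (3.05 to 3.80), and Rbm3 at 178 and 360 CPM, 2.03-fold higher (1.80 to 2.28). Of 22 measured genes of this list, which holds splicing factors as well, 10 had ratios above 1 and 12 below, and the median log2 ratio was -0.04. Past 1.5-fold, 3 were higher and 2 lower, Tra2a (ratio 0.63) and Srsf6 (0.66). In non-cone cells Cirbp was at 287 and 890 CPM and Rbm3 at 143 and 421.

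Clock genes were slightly higher in STZ members. Of 13 measured, 12 had ratios above 1, and the median log2 ratio was 0.41. Past 1.5-fold, 2 were higher and 0 lower, against 2.5% and 2.47% of all 3316 measured genes. Hlf, a PAR-bZIP output of the clock, was at 51.4 and 95.9 CPM, 1.87-fold higher (1.5 to 2.34) but 1.39-fold with a mitochondrial share of at most 10%, and the repressor Bhlhe41 at 65.8 and 98.8 CPM, 1.5-fold higher (1.23 to 1.85). Dbp, another output gene, was at 122 and 168 CPM, 1.37-fold higher. The median was 0.12 in short-wave cones, 0.30 in cones with both opsins and -0.19 in non-cone cells. Over the alternative settings it ranged from 0.11 to 0.44, and the time of day of collection is not given in the sources used here. Of 6 measured immediate-early genes, all 6 had ratios above 1, 1 was past 1.5-fold, and the median was 0.34. For the same genes the median was 0.21 in short-wave cones, -0.03 in cones with both opsins and -0.26 in non-cone cells. Fos was at 66.2 and 112 CPM in members, 1.70-fold higher (1.39 to 2.08), and in non-cone cells at 1043 and 777 CPM. With a mitochondrial share of at most 10% the median was 1.06 and Fos 2.93-fold higher, and with cone genes at 2% of UMIs or more Fos was 1.42-fold higher, short of 1.5-fold.

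Few genes of the light response itself were past 1.5-fold between the libraries. Of 13 measured phototransduction genes outside the rule, 0 were higher and 1 lower past 1.5-fold, with a median log2 ratio of 0.04. Among all 3316 measured genes 2.5% were higher and 2.47% lower, so these counts do not set the list apart. The channel subunit Cngb3 was at 522 CPM in control members and 347 in STZ members, 1.51-fold lower (1.38 to 1.64). It stood at the limit, and its ratio was between 0.67 and 0.70 in 5 of the alternative settings, short of 1.5-fold. Recoverin (Rcvrn), a calcium sensor, was at 3221 and 2378 CPM, 1.35-fold lower. The deactivation genes Rgs9 and Gnb5 were at 700 and 833 CPM and at 374 and 505 CPM. The retinoid genes Rbp3, Abca4 and Rdh12, which handle the chromophore, were at ratios of 0.99, 0.96 and 0.81. Kcnv2, a potassium channel subunit of photoreceptors, was at 115 and 63.3 CPM, 1.81-fold lower (1.49 to 2.20) and at a ratio of 0.36 with a mitochondrial share of at most 10%, and the taurine transporter Slc6a6 at 1103 and 1968 CPM, 1.79-fold higher (1.70 to 1.87). These 2 were the genes past 1.5-fold among 15 measured of the ion transport list.

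Few or no fate and thyroid genes were past 1.5-fold between the libraries, against 2.5% higher and 2.47% lower among all 3316 measured genes. Of 16 measured fate factors, 1 was past 1.5-fold, Samd7, at 72.3 and 124 CPM, 1.72-fold higher (1.43 to 2.09). Of 6 measured thyroid and retinoid signalling genes, 0 were past 1.5-fold, and Thrb was at 399 and 487 CPM, 1.22-fold higher (1.12 to 1.33). Mef2c, a transcription factor, was at 140 and 99.9 CPM. Of 22 measured outer segment and cilium genes, Tmem237 was the 1 past 1.5-fold, and Cep290, of the transition zone, was at 318 and 228 CPM, 1.39-fold lower (1.25 to 1.55). Of 25 measured ribbon synapse genes, 1 was past 1.5-fold, the vesicle protein gene Sv2a, at 71.0 and 113 CPM, 1.59-fold higher (1.31 to 1.94). Cplx3, a complexin of ribbon synapses, was at 656 and 797 CPM.

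Among metabolic genes, most glycolysis genes had ratios below 1. Of 19 measured, 16 were below 1 and 3 above, the median log2 ratio was -0.19, and 2 were past 1.5-fold. Pfkfb2, which makes the activator of phosphofructokinase, was at 36.6 and 65.5 CPM, 1.79-fold higher (1.37 to 2.35), and the phosphofructokinase subunit Pfkl at 119 and 73.2 CPM, 1.62-fold lower (1.35 to 1.96). Aldoa, the aldolase, was at 2512 and 2012 CPM. The list's median was -0.22 in non-cone cells. Of 40 measured nuclear genes of the respiratory chain and of 13 mitochondrial ones, 0 were past 1.5-fold, with medians of 0.04 and 0.02. The mitochondrial creatine kinase Ckmt1, which buffers ATP, was at 601 and 407 CPM, 1.48-fold lower (1.37 to 1.60). Of 11 measured antioxidant genes and 8 of insulin signalling, 0 were past 1.5-fold. With 2.5% higher and 2.47% lower among all 3316 measured genes, a count of 0 does not set such short lists apart. Gpx4, which reduces lipid peroxides, was at 1296 and 1328 CPM, and the insulin-like growth factor receptor Igf1r at 146 and 177 CPM. Txnip, which responds to glucose, held 0 UMIs in control members and 8 in STZ members.

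Selenbp1, which oxidises methanethiol (chr3:94933056-94944758, plus strand), lay under the minimum level for measured genes, and was chosen after its values were seen. It held 1 UMI in control members and 151 UMIs in STZ members (0.44 and 55.3 CPM), a ratio of 127 (22.4 to 5046). Resting on 1 UMI in control, the ratio ranged from 14.8, with cells thinned to 800 UMIs, to 129 over the alternative settings. A Selenbp1 UMI was found in 0.249% of control and 17.4% of STZ members, and in 6.51% and 7.22% of non-cone cells. Thinned to 2000 UMIs, the shares of members were 0% and 8.87%. In short-wave cones it was at 14.4 and 98.7 CPM. Control members thus held less of it than any other cells compared, and STZ members more than non-cone cells (23.9 CPM). With Selenbp2 as a close copy, its count depends on read assignment.

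RNA of other cell types was present at low levels in members and differed between the libraries. The summed rod bipolar markers (9 of 9 with a UMI) were at 365 CPM in control members and 564 in STZ members, the cone bipolar markers (11 of 11) at 174 and 258, and the Müller glia markers (12 of 12) at 663 and 898. The vascular markers (10 and 11 of 11) were at 13.9 and 36.2 CPM, those of pigment epithelium (6 of 9 in each) at 30.9 and 56.7, those of red cells (3 and 5 of 5) at 3.48 and 10.6, and those of leukocytes (6 and 7 of 12) at 4.35 and 9.52. Amacrine and horizontal markers (8 and 7 of 13) were at 64.9 and 78.3 CPM and ganglion cell markers (6 and 8 of 8) at 40.5 and 52.3. The rod list, most of whose RNA is shared by photoreceptors, was at 16495 and 13003 CPM, and Gnat1, the rod transducin, at 261 and 294 CPM against 673 and 686 in non-cone cells. The bipolar gene Pcp2 was at 98.4 and 313 CPM in members and at 3760 and 3852 in non-cone cells, and Pcp4 and Trnp1 were 2.83-fold and 3.61-fold higher in STZ members. The metallothionein Mt1 was at 29.6 and 140 CPM, 4.72-fold higher (3.64 to 6.21), while non-cone cells held 589 and 1623 CPM. Its ratio was 19.3 with a mitochondrial share of at most 10% and 2.97 in cells under 2400 genes. Since these genes are more abundant in other cells, the rule for named genes leaves them out, and the part of free RNA in them was not tested. Leaving out cells with over 1% of UMIs from other cells' markers kept 402 control and 550 STZ members, with 81 genes higher and 82 lower.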

How the data were processed

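Single retinal cells were profiled with a 10x Chromium 3′ assay. The table the authors deposited holds raw UMI counts per gene and cell. Cell Ranger 3.0.1, Seurat 3.0 and mm10 are named per the submitters' processing notes, and settings and cell filters are not given in the sources used here. The ending of a cell's name gives its library. Every value was a whole number, and no cell exceeds 2999 genes.

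From these counts, members were selected by the limits given above, and their UMIs summed per library and scaled to CPM (Python 3.11.15, NumPy 2.4.6, SciPy 1.17.1). No doublet caller was run. Folds are ratios of CPM with conditional binomial intervals, levels have exact Poisson and shares Clopper-Pearson intervals, and a sum of 0 was set to 3 UMIs, giving a bound. UMIs of 1 cell are not independent, so intervals cover counting error only. The ratios were tested on simulated data.

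Genes named singly were, per direction, the 10 with the largest STZ ratio and the 8 with the largest ratio against short-wave cones in both libraries, with at least 100 UMIs, a named symbol, no mitochondrial, haemoglobin or ribosomal protein gene, and no higher pooled level in non-cone cells. Up to 5 members per list follow. 1 gene that this rule names is not reported here. Genes outside this rule (Nr2f2 and its neighbours, Ccdc136, Vax2, Selenbp1, Txnip, Pcp2, Pcp4, Trnp1, Mt1, Gnat1, cone markers) were chosen after their values were seen. The members, lists and rules were chosen with earlier results of these data known. Gene positions are from GENCODE vM21. Alternatives changed the limits on cells, opsin share, depth, scaling and the minimum level.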

Additional observations from a re-analysis of the deposited data

Results flagged for a closer look

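Samd7 stood out because its ratios of STZ over control lay on opposite sides of 1 in the 2 kinds of cone. In middle-wave cones the control level was 72.3 CPM and the STZ level 124 CPM, a ratio of 1.72, and in short-wave cones at 22.9 and 14.3 CPM, a ratio of 0.62. The short-wave values rest on 27 and 12 UMIs, and the difference between both ratios was not tested.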

How the results depend on the processing

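The share of middle-wave cones moved most with the limits on cells. It was 46.7% in control and 47.4% in STZ with a mitochondrial share of at most 10%, 58.2% and 65.6% with cone genes at 2% of UMIs or more, 43.5% and 52.6% in cells of 1500 to 5000 UMIs, and 55.7% in STZ with Opn1mw at 90% or more. In cells under 2400 genes, a setting chosen after seeing the data, it was 44.6% and 55.8%. The counts of genes 1.5-fold higher and lower in STZ were 195 and 229 at the 10% mitochondrial limit (7.79% and 9.15% of 2504), 168 and 196 in cells of 1500 to 5000 UMIs (5.12% and 5.97%), 193 and 200 with cells thinned to 800 UMIs (7.11% and 7.36% of 2716), 21 and 21 with at least 200 UMIs and 200 CPM (2.72% each of 771), and 2417 and 1099 with no minimum (18.8% and 8.55%), and 129 were lower in cells under 2400 genes (3.96%). The counts higher and lower than in short-wave cones were 72 and 69 at the 10% limit (2.07% and 1.98%), 62 and 55 when thinned (1.87% and 1.66%), 6 and 5 at 200 UMIs and 200 CPM (0.783% and 0.653% of 766), 353 and 476 with no minimum (3.1% and 4.19%), and 35 were lower in cells of 1500 to 5000 UMIs (1.07%). The minimums change how many genes are measured. For the other shifts the cause was not tested. Over 30 single genes compared between the libraries, 34 of 420 alternative values lay outside the counting interval of the main value and 0 reversed. Over 21 genes compared between kinds of cone, 34 of 293 did so and 0 reversed. A reversal was counted only where the main ratio was past 1.5-fold. Most of these genes were chosen for large ratios in the same cells that the alternatives reuse, so the counts of 0 are no independent check. The counting error of the alternative value itself, larger where fewer cells or UMIs remain, was not included. Of 196 list medians, which have no interval, 4 moved. The median of phototransduction genes, near 0, changed sign in 5 settings and that of antioxidant genes in 1. No paired analysis was possible because each group is 1 library. Depth limits genes under 50 UMIs, and nothing here measures the spread between mice.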
